A study of Mus musculus with 31 samples.

Results

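T cell receptor beta V genes (Trbv genes) were followed across 31 RNA-seq libraries of a mouse model of peripheral T-cell lymphoma driven by a Vav1-Myo1f gene fusion. The members were all genes whose symbol starts with Trbv and a number: 35 genes were listed in every library, out of 55276 listed symbols in the CD4-Cre and pre-lymphoma tables and 49315 in the CD4-CreERT2 tables. Trbv12-1 and Trbv12-2, whose sequences are nearly alike, were summed, which left 34 units. The usage of a unit was its share of all Trbv counts in a library.

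Each alpha-beta T cell assembles its beta chain gene by joining a V, a D and a J segment next to a constant region, so the V gene in the transcript marks the cell and all its descendants. A population of many T cell clones therefore spreads its transcripts over many V genes, while expansion of a clone raises the share of the V gene that it carries. T-cell lymphomas are commonly examined for such a dominant rearrangement, and several clones may carry the same V gene.

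All mice were labelled C57B/6. In the pre-lymphoma set, CD4+ T cells gave 3 libraries whose label joins the fusion genotype with itself, Vav1Myo1ffl/wt;CD4CreERT2 (Vav1Myo1f) on both sides of a slash (here fusion/fusion, TA023 to TA025), 3 whose label joins CD4-Cre-ERT2(WT) with the fusion genotype (control/fusion, TA020 to TA022), and 2 controls labelled CD4-Cre-ERT2(WT) (TA018 and TA019). What the slash stands for is not given in the sources used here. In the CD4-Cre model, tumors of CD4-CreVav1Myo1f fl/wt mice gave 4 CD4+ and 3 whole-spleen libraries, and CD4-Cre(WT) controls gave 3 of each. In the CD4-CreERT2 model, tumors of CD4-CreERT2Vav1Myo1f fl/wt mice gave 2 CD4+ and 3 spleen libraries, and CD4-CreERT2 (WT) controls gave 2 and 3. Both drivers use the Cd4 promoter, so the fusion is switched on in cells in which that promoter is active. The control labels name the driver followed by (WT), which does not settle whether the controls carry it. The ERT2 form of Cre needs an inducer, whose dose and time are not given here, nor are ages. A tumor CD4+ library and a control CD4+ and spleen library bear the same number, VM645, with different genotypes; they are called VM645-tumor and VM645-WT here. Whether the pre-lymphoma libraries came from separate mice is not stated, so their p-values measure only the spread between libraries.

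The libraries held 12632196 to 37568512 gene counts and 350 to 26386 Trbv counts, the lowest in the spleen of tumor mouse VM294. As a check of the cell labels, summed Cd3d, Cd3e, Cd3g, Cd4 and Trac reached 2797 to 4574 CPM (counts scaled to the library's total) in the CD4+ libraries and 329 to 1210 CPM in the spleens, with none of the 5 at 0. Reads were amplified and carry no molecular identifiers, so intervals on shares cover counting error only.

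The Trbv genes lie on chromosome 6 (GRCm38), from Trbv1 at chr6:40891229-40891885 to Trbv30 at chr6:41281376-41281990 on the plus strand, followed by the D, J and constant segments and then by Trbv31 on the minus strand at chr6:41557691-41558452. The last exon, which encodes nearly all of the V domain, is shown for the 4 genes that led in the tumors with a dominant unit, from GENCODE vM21 transcripts. In the first pair, capitals mark the 32 bases that differ between the exons of Trbv12-1 (chr6:41113775-41114067) and Trbv12-2 (chr6:41119072-41119364). In this pair 261 of 293 bases are identical, with a longest shared run of 44 bases. Trbv13-2 and Trbv13-3 are more alike, with 270 of 294 bases identical and a longest run of 50, but were kept as separate units, so the summing of Trbv12-1 and Trbv12-2 alone was a choice; usage with the Trbv13 genes summed as well is given where it moves a result. In Trbv3 (chr6:41048529-41048828) and Trbv20 (chr6:41188678-41188977), shown without the first bases of the exon, capitals run from the TGT codon of the conserved cysteine, where the third complementarity-determining region begins, to the end of the exon.
Trbv12-1: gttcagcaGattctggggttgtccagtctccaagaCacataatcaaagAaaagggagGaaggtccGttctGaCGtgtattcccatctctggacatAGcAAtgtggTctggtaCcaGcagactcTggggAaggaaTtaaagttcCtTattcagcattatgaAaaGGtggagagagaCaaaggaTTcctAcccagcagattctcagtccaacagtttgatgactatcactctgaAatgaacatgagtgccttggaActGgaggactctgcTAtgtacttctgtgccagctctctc
Trbv12-2: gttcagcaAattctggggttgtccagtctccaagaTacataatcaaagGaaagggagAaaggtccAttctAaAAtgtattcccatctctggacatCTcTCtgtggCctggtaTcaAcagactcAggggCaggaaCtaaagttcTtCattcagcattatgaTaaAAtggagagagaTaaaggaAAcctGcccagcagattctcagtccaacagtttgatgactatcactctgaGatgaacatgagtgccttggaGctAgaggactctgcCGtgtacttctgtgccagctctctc
Trbv3: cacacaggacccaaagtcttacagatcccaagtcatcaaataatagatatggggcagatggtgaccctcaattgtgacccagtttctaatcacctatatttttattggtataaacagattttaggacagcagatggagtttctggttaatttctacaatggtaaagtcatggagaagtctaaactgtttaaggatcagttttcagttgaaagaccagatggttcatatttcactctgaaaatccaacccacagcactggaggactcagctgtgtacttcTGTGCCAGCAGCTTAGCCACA
Trbv20: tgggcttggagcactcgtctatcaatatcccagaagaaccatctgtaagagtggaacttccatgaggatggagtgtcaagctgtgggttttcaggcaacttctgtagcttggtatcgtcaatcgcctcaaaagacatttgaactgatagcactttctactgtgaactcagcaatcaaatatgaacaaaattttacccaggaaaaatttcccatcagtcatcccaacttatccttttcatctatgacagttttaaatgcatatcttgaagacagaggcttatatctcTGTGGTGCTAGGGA

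The baseline was broad. Over the 7 control CD4+ libraries, Trbv3 held 11.7% ± 2.54 and Trbv13-2 held 11.7% ± 1.12 of Trbv counts (mean ± SD, n = 7). Trbv2 held 8.22% ± 1.55, Trbv19 7.64% ± 1.27, Trbv13-1 7.37% ± 0.61, Trbv1 7.28% ± 1.26, Trbv13-3 7.24% ± 1.02 and Trbv16 7.22% ± 1.06. From Trbv2 down, neighbours in this order differed by less than either SD. Trbv31 held 6.81%, Trbv12-1 with Trbv12-2 5.58% and Trbv20 3.67%. These are shares of counts: with counts divided by gene length, Trbv13-2 averaged 13.7% and Trbv3 10.3%, Trbv13-3 came next at 8.54% and Trbv19 stood at 5.41%. The 12 genes annotated as pseudogenes in both GENCODE and RefSeq together held at most 0.225% of Trbv counts in any library, and 2 of them had no count anywhere. Trbv24 and Trbv29, each a pseudogene in only 1 of these annotations, held a median of 0.304% and 1.51%. Trbv4 and Trbv5 stood at 2.36% to 3.35% and 2.47% to 2.74% in the CD4-CreERT2 control CD4+ libraries, and at no more than 0.312% and 0.172% in the other control CD4+ libraries, which were counted in another kind of table; tests were therefore kept within a table kind.

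Tumor mice VM388, VM645-tumor and VM231 were each dominated by a single, different V unit. In the CD4-Cre model, Trbv3 held 51.0% of Trbv counts in the CD4+ cells of VM388 (95% Clopper-Pearson interval 50.3% to 51.8%), against 12.7%, 15.2% and 10.4% in VM211, VM216 and VM645-WT control CD4+ cells. In the spleen of VM388 it held 46.5% (44.1% to 48.9%), against 7.55%, 8.71% and 9.51% in the control spleens. In VM645-tumor CD4+ cells, Trbv12-1 with Trbv12-2 held 67.9% (67.0% to 68.9%), against 6.24%, 6.44% and 6.4% in the controls. In the CD4-CreERT2 model, Trbv20 held 66.4% (65.7% to 67.1%) in VM231 CD4+ cells and 49.1% (47.0% to 51.3%) in its spleen, against 2.89% and 2.98% in A1 and A3 control CD4+ cells and 2.36%, 3.05% and 2.19% in the A1, A2 and A3 spleens. Trbv20 was thus a minor gene in controls, Trbv3 a leading one.

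**Figure D1:**
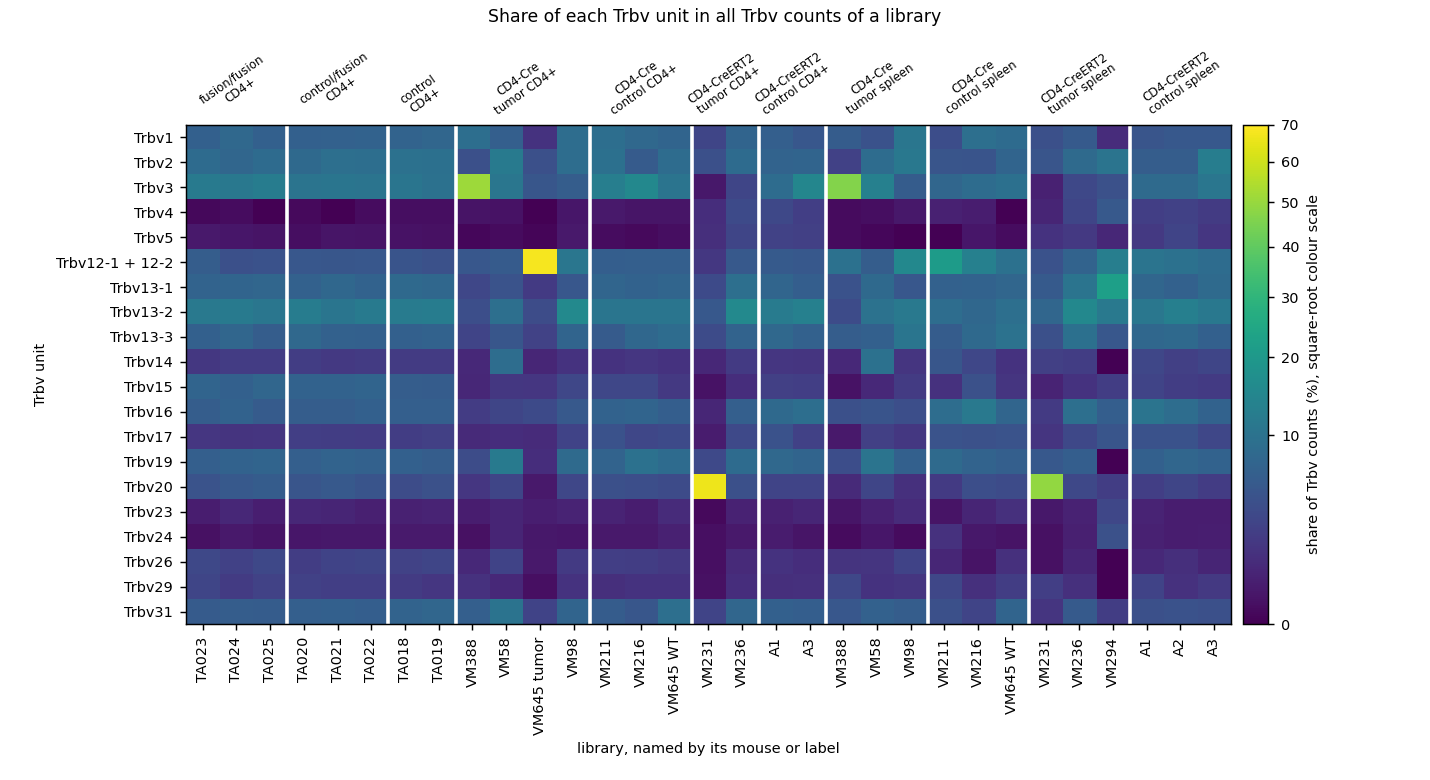
Share of each Trbv unit (rows; the 20 units that reached 1% of Trbv counts in some library, with Trbv12-1 and Trbv12-2 summed) in each of the 31 libraries (columns, by group), in percent of Trbv counts on a square-root colour scale. The brightest cells are Trbv12-1 with Trbv12-2 in VM645-tumor (67.9%), Trbv20 in VM231 (66.4% and 49.1%) and Trbv3 in VM388 (51.0% and 46.5%), while no unit exceeds 12.4% in the pre-lymphoma set.

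The other tumor libraries had no such leader. In CD4+ cells the leading unit was Trbv19 at 11.9% in VM58, Trbv13-2 at 15.4% in VM98 and Trbv13-2 at 15.5% in VM236, next to leading shares of 10.5% to 15.2% in the 5 control CD4+ libraries of these models. In the spleen it was Trbv3 at 13.3% in VM58, Trbv12-1 with Trbv12-2 at 15.4% in VM98 and Trbv13-2 at 15.4% in VM236, next to 9.91% to 21.1% in the 6 control spleens. With Trbv13-1, Trbv13-2 and Trbv13-3 summed, they led every library except those of VM388, VM645-tumor and VM231, at 18.8% in VM58 CD4+ cells up to 38.9% in the VM294 spleen. On that scale VM236 stood at 32.0% in CD4+ cells and 35.4% in spleen, against 26.5% to 27.7% and 26.2% to 28% in its controls. Trbv13-1 on its own led the VM294 spleen with 22.3%, but from 350 Trbv counts, so its interval ran from 18.0% to 27.0%. VM294 also had the lowest constant-region level, 49.0 CPM of Trbc1 and Trbc2 against 378 to 536 in its control spleens. Its Trdc and Trdv4, genes of the delta chain of gamma-delta T cells, summed to 66.7 CPM, against 12.5 to 18.5 in those spleens. In bulk RNA, fewer T cells and less receptor RNA per cell cannot be told apart, and the part of these levels in its V gene shares was not tested.

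Evenness was summarised as the effective number of units, the number of equally used units that would give the same Shannon entropy. It was 7.0 in VM388 CD4+ cells, 4.21 in VM645-tumor and 4.41 in VM231, against 14.2 in VM58, 14.4 in VM98, 15.4 in VM236 and 14.4 to 16.2 in the control CD4+ cells. The tumor mean was 9.94 ± 5.30 (SD, n = 6) and the control mean 15.1 ± 0.676 (n = 5); the difference, taken within models, was -5.23 (exact permutation test of libraries within models, two-sided, p = 0.0667, adjusted p = 0.244 over 13 tests). The leading share averaged 38.0% ± 26.7 in tumor and 13.1% ± 1.93 in control CD4+ cells, a difference of 25.6 percentage points within models (exact permutation p = 0.0476, adjusted p = 0.244; leading share higher than in every control of its model in 5 of 6 tumors). In spleens the effective number averaged 11.6 ± 3.26 in tumors and 15.1 ± 0.922 in controls (n = 6 each, exact permutation p = 0.015, adjusted p = 0.195), and the leading share 27.0% ± 16.5 and 13.5% ± 3.96 (p = 0.075 by the same exact test, adjusted p = 0.244). None of the 4 differences passed the threshold of 0.05 after adjustment, and the tumors themselves fell apart into libraries with and without a dominant unit. Leaving out VM231 gave a CD4+ effective-number difference of -2.48 and leaving out VM236 gave -7.97. Without VM231 the CD4+ leading-share difference was 12.9 points, and leaving out VM388 or VM231 from the spleens gave 8.11 or 8.42 points.

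**Figure D2:**
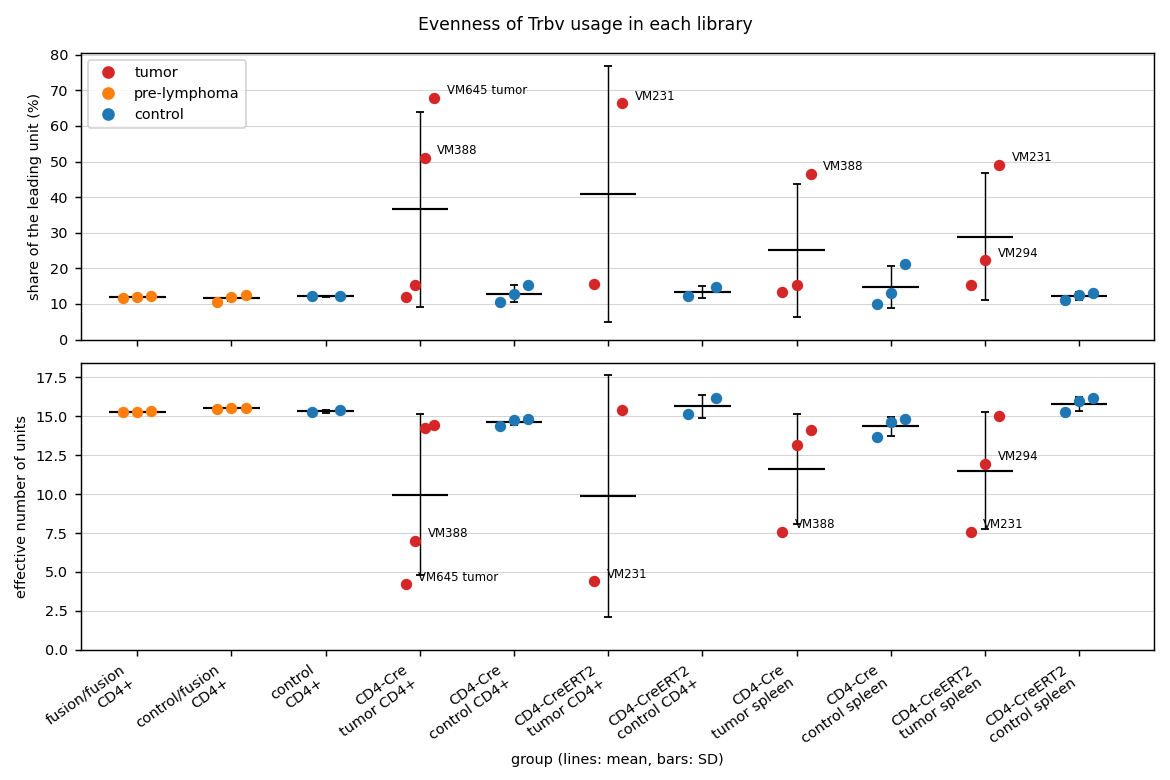
Share of the leading Trbv unit (upper panel, percent of Trbv counts) and effective number of units (lower panel) in each library, with the group mean (line) and SD (bar); tumor libraries with a leading share over 20% are named. VM645-tumor, VM231 and VM388 stand apart from their groups, and all 8 libraries of the pre-lymphoma set lie between 15.3 and 15.5 effective units.

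The remaining units of the mice with a dominant unit mostly stood below the controls, as shares that sum to a fixed total must where 1 unit is so high. Of the units with at least 1% in the tumor or control libraries compared, 1 was above, 17 below and 0 within the control range in VM231 CD4+ cells, against 1, 15 and 1 in VM645-tumor and 1, 13 and 3 in VM388. In mice without a dominant unit the departures ran both ways: 5 above, 10 below and 2 within in VM58, 4, 5 and 8 in VM98, and 10, 5 and 3 in VM236 CD4+ cells. The control ranges rest on 2 or 3 libraries, so a unit may fall outside them without differing from controls at large.

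The tumor effect on the leading share did not differ detectably between the models: CD4-Cre minus CD4-CreERT2 was -3.75 points in CD4+ cells (exact permutation p = 0.924) and -6.38 points in spleen (p = 0.6 by the same exact test). With the dominant unit set aside, the remaining Trbv counts of VM388, VM645-tumor and VM231 CD4+ cells gave effective numbers of 12.9, 12.5 and 12.4, against 14 to 15.6 in controls treated alike. The usage outside the dominant unit was also displaced: 19.5, 17.4 and 24.8 percentage points of it would have to be moved to other units to match the controls' mean, against 6.19 to 9.23 points between each control and the others. VM58 and VM236, which had no dominant unit, stood at 19.0 and 14.2 points on this measure, and VM98 at 12.

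Smaller shifts marked the mice without a dominant unit, and several were seen in both of their libraries. In VM58, Trbv14 held 9.02% of CD4+ and 9.77% of spleen Trbv counts, against 1.48% to 1.79% and 1.48% to 4.96% in controls, so that a gene of low rank stood near the top. Trbv19 and Trbv2 in VM58 and Trbv13-2 in VM98 were above the control range in both tissues. In VM236, Trbv3 held 3.04% and 3.35%, against 8.71% to 14.6% and 8.34% to 10.8% in controls, and Trbv13-2 held 15.5% and 15.4%, against 12.2% to 13.4% and 11.1% to 13.2%. These are values of single mice with no replicate, against 2 or 3 controls.

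The test over all genes called none of these V genes. With edgeR's quasi-likelihood test (Benjamini-Hochberg adjusted p under 0.05), 0 of 22 Trbv genes tested were called in CD4-Cre CD4+ tumors, where 0.157% of all 17841 genes were called, and 0 of 18 in CD4-Cre spleens, 0 of 23 in CD4-CreERT2 CD4+ cells and 0 of 22 in CD4-CreERT2 spleens, with 0% of genes called in each. At an unadjusted p under 0.05 the counts were 4, 2, 2 and 1 genes in the same order. DESeq2 called 2 lower, 0, 1 higher and 1 lower, where it called 5.7%, 3.09%, 1.79% and 9.95% of genes. The median log2 fold change of the tested Trbv genes was -0.53, -0.31, -0.75 and -1.09, beside 0.06, 0.04, 0.01 and -0.02 over all genes. Without VM236, the CD4-CreERT2 CD4+ comparison rested on VM231 alone and called 20 of 23 Trbv genes, 1 higher and 19 lower, and 1902 higher and 1352 lower of all 18263 genes, the lone library being assumed to vary like the controls.

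Summed Trbv counts reached 339 to 738 CPM in tumor CD4+ cells and 411 to 781 in controls, a difference of -0.28 on the log2 scale within models (exact permutation p = 0.181). In spleen it was 14.1 to 182 in tumors and 67.9 to 206 in controls, a difference of -0.89 (exact permutation p = 0.175). Leaving out VM231 or VM236 moved the CD4+ difference to -0.10 or -0.45, and leaving out VM294 moved the spleen difference to -0.39. The receptor complex genes are Trac, Cd3d, Cd3e, Cd3g and Cd247, which encode the alpha constant region and the signalling chains. In each of the 4 tumor comparisons edgeR called 0 of these 5. Of all genes it called 0.157% in CD4-Cre CD4+ cells and 0% in CD4-Cre spleens, CD4-CreERT2 CD4+ cells and CD4-CreERT2 spleens. With so few genes called, 0 of 5 does not show that their levels were unchanged. Of the receptor assembly genes Rag1, Rag2, Dntt and Ptcra, only Dntt was counted highly enough to be tested. Its log2 fold change was -3.09 ± 0.83 in CD4-Cre CD4+ tumors, -2.03 ± 1.07 in CD4-Cre spleens, -0.23 ± 0.72 in CD4-CreERT2 CD4+ cells and 0.53 ± 0.63 in CD4-CreERT2 spleens, and did not pass (edgeR adjusted p = 0.16, 0.443, 1 and 0.654). The 4 genes summed to 0.132 to 4.62 CPM in CD4-Cre CD4+ tumors and 7.15 to 9.76 CPM in their controls. These sums include the Dntt counts and are not separate from its test, which it did not pass. The share of all genes whose ranges separate these groups was not computed.

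The constant region gave a reading that the choice of Trbv genes did not use. Each beta chain uses Trbc1 or Trbc2, and Trbc1 took 59.9% of their counts in VM231 CD4+ cells and 51.8% in its spleen, against 36.6% and 36.8% in control CD4+ cells and 37.2% to 38.8% in control spleens. In VM645-tumor CD4+ cells Trbc1 took 48.9%, in VM388 43.0% and in VM58 43.9%, against 39.3% to 39.7% in the CD4-Cre controls, while VM98 stood at 36.7% and VM236 at 36%. Within the leading pair of VM645-tumor, Trbv12-1 held 37.8% and Trbv12-2 30.2% of Trbv counts, a ratio of 1.25. The CD4-Cre control CD4+ cells had ratios of 0.371 to 0.563. Those of VM388 (1.13) and VM98 (0.676) CD4+ cells were also above this range, and that of VM58 (0.315) was below it. The tables of these libraries have separate rows for ambiguous and multiply aligned reads. Reads that match both genes may therefore be missing from the sum as well. How many there were was not examined, and the split is less certain than the sum. No J segment dominated the Trbj counts: the leading Trbj gene held 16.4% of Trbj counts in VM388, 14.3% in VM645-tumor and 12.5% in VM231 CD4+ cells, against 11.3% to 17.3% in the 5 control CD4+ libraries, from 1784, 722 and 2705 Trbj counts in the 3 tumors. Trbj genes span only 46 to 54 bases, and a pseudogene, Trbj2-6, led TA025 with 11.3%. These shares therefore cannot show whether 1 rearrangement dominated. In the alpha chain, VM231 was led by Trav13-1 with 52.8% and 56.2% of Trav counts, while VM388 and VM645-tumor had no single Trav gene above 8.39%. No Trav genes were summed, so usage of a Trav family was not measured. The top 2 were Trav7-4 (8.39%) and Trav7d-4 (6.07%) in VM645-tumor CD4+ cells. In VM388 CD4+ cells they were Trav14-2 (6.30%) and Trav14-3 (5.60%). Among tumors without a dominant Trbv unit, Trav6n-6 led VM98 with 14.2% in CD4+ cells and 7.84% in spleen. No Trav gene of VM58 or VM236 exceeded 8.59%. Trav15-2-dv6-2 led the VM294 spleen with 22.1% of 1596 Trav counts. Its symbol also names a delta V gene, and whether these reads came from alpha or delta chains was not tested. The leading Trav gene of a control held at most 8.13% in CD4+ cells and 10.8% in spleen.

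The CD4+ library of a tumor mouse resembled the spleen of the same mouse. Among the 6 spleens of its model, the mouse's own spleen was the nearest in V gene usage for 5 of 5 tumor mice with both libraries and for 1 of 5 control mice. Distance was again the percentage points of usage to be moved to turn a profile into the other. The distance to the own spleen was 13.7 points in VM388, against 42.5 or more to the other spleens, and 19.1 in VM231, against 63.1 or more. It was also smaller in mice without a dominant unit: 13.0 against 24.5 or more in VM58, 9.59 against 16.4 or more in VM236, and 13.5 against 14.5 or more in VM98. The next spleen for VM98 was that of control VM645-WT, and its own spleen rested on 1648 Trbv counts. Counting error of the distances was not estimated, so the order in VM98 is uncertain. Cd8a and Cd8b1, markers of the CD8+ T cells that whole spleen also holds, summed to 34.3 CPM in the spleen of VM388, 45.3 in VM58, 103 in VM98, 53.2 in VM231 and 303 in VM236, against 112 to 283 CPM in the control spleens, and their part in this likeness was not tested. In controls the own spleen lay at 9.25 to 25.2 points, and the nearest other spleen at 7.30 to 14 points.

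**Figure D3:**
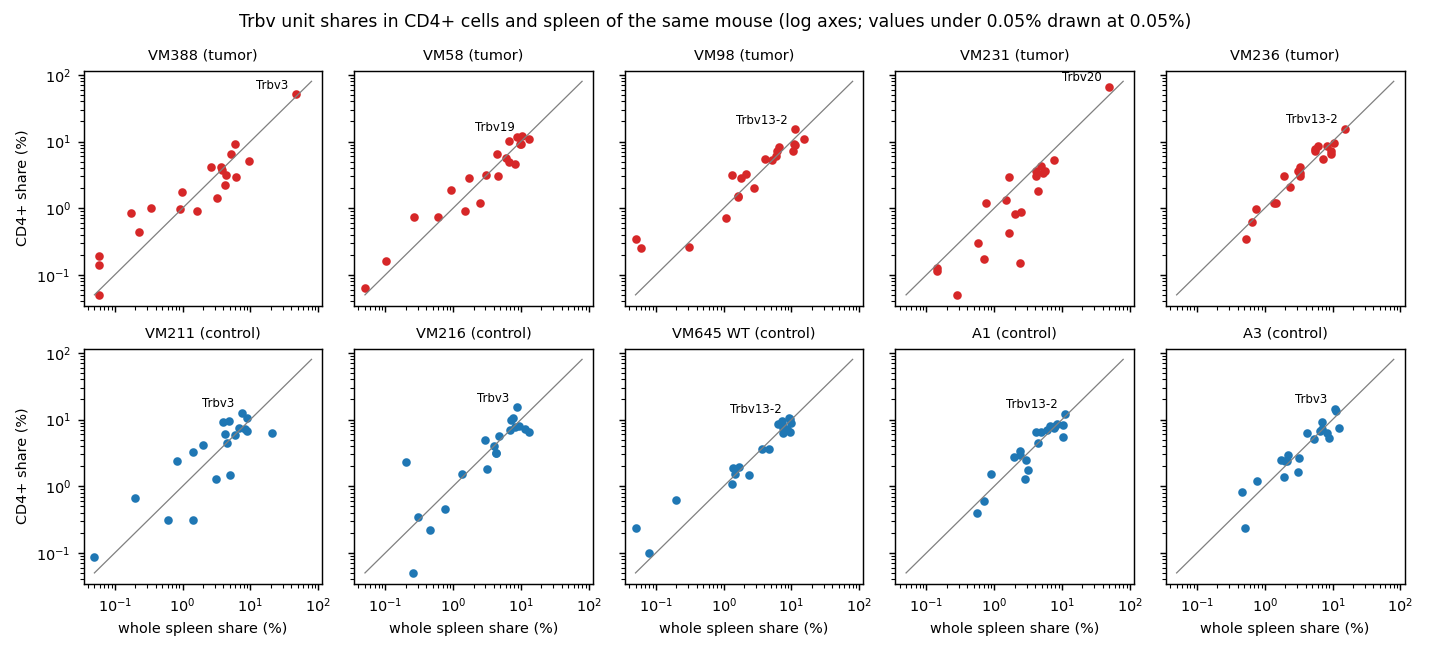
Share of each Trbv unit in whole spleen (x axis) and in CD4+ cells (y axis) of the same mouse, in percent of Trbv counts on log axes, for 5 tumor mice (upper row) and 5 control mice (lower row); the line marks equal shares and the leading CD4+ unit is named. Trbv20 in VM231 and Trbv3 in VM388 lie near the top right corner, far from the other units.

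**Figure D4:**
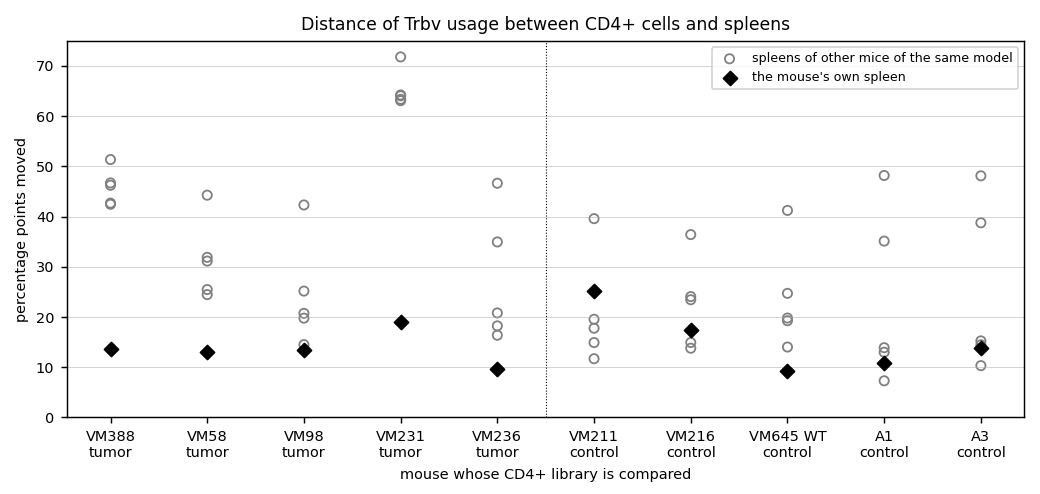
Percentage points of Trbv usage that differ between the CD4+ library of a mouse and each spleen library of its model; diamonds mark the mouse's own spleen and circles the 5 other spleens. In all 5 tumor mice the diamond is the lowest point, which holds for only VM645-WT among the 5 control mice.

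Within control mice, CD4+ cells and spleen differed in a recurrent way. Trbv12-1 with Trbv12-2 averaged 6.00% in CD4+ cells and 12.6% in spleen, and was lower in CD4+ cells in 5 of 5 mice, as were Trbv17 (3.64% and 4.22%) and the little-used Trbv30 (0.223% and 0.355%). Trbv13-2 (11.4% and 9.68%), Trbv3 (12.3% and 9.0%), Trbv31 (6.62% and 4.52%) and Trbv26 were higher in CD4+ cells in 5 of 5 mice. Cd8a and Cd8b1 summed to 35.3 to 47.2 CPM in control CD4+ cells of these mice and to 112 to 283 CPM in control spleens, and their part in the shares was not tested. The named units were picked from all 34 for running the same way in 5 of 5 mice. With 5 pairs an exact test cannot go below p = 0.0625 for any unit. The effective number did not differ beyond the spread between mice, 15.1 ± 0.676 in CD4+ cells and 14.9 ± 0.915 in spleen (exact permutation p = 0.875).

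In the pre-lymphoma CD4+ cells no V unit dominated. The leading unit was Trbv3 at 11.8% in TA023 and 12.3% in TA025 and Trbv13-2 at 11.7% in TA024 of the fusion/fusion group. In the control/fusion group it was Trbv13-2 at 12.4% in TA020 and 11.9% in TA022 and Trbv3 at 10.7% in TA021, and in the controls Trbv13-2 at 12.1% and 12.3%. The leading share averaged 11.8% ± 0.614 over both pre-lymphoma groups and 12.2% ± 0.119 in controls (n = 6 and 2, exact permutation p = 0.357, where 0.0714 is the smallest possible). The effective number was 15.3, 15.4 and 15.3 in fusion/fusion, 15.5 in each control/fusion library, and 15.3 and 15.4 in controls. The fusion/fusion values lay below the control/fusion values without overlap, by 0.198 units, at the smallest p that 3 against 3 allows (exact permutation p = 0.1, adjusted p = 0.26).

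The spread between libraries of a group was set against counting error. Pearson's chi-square over the Trbv units, divided by its degrees of freedom, is near 1 when libraries differ by counting error alone. It was 3.46 among fusion/fusion libraries, where TA023 and TA024 differed most (4.96), 1.51 among control/fusion and 1.17 among control libraries, against 487 and 908 among the CD4+ tumors and 23.0 and 31.9 among the CD4+ controls of the CD4-Cre and CD4-CreERT2 models. This ratio grows with the counts behind it. Pre-lymphoma libraries had 4798 to 12056 Trbv counts, against 8451 to 26386 in CD4+ libraries of the tumor models. TA018 and TA019, at 9858 and 9438 Trbv counts, gave 1.17. VM211 and VM216 control CD4+ cells, at 16366 and 14261, gave 18.8. Over all genes these pairs gave 19.3 and 61.7. Whether the pre-lymphoma libraries came from separate mice is not stated, and its part in their closeness was not tested.

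Among the other leading units, Trbv13-2 held 11.5%, 11.7% and 10.7% in fusion/fusion, 12.4%, 10.5% and 11.9% in control/fusion, and 12.1% and 12.3% in control libraries. Trbv2 held 8.61%, 7.58% and 8.46% in fusion/fusion, 8.17%, 9.28% and 9.08% in control/fusion, and 9.68% and 9.60% in control libraries. Trbv15 held 6.54% to 7.65% in fusion/fusion, 6.94% to 7.27% in control/fusion and 5.95% and 6.17% in control libraries, but averaged 2.64% in the 5 control CD4+ libraries of the tumor models; the sets differ in more than 1 respect and this was not tested. Trbv13-1 averaged 7.34% in fusion/fusion and 7.15% in control/fusion cells, against 8.03% in controls, without overlap with the controls in either group. Trbv1 averaged 7.05% in fusion/fusion, which overlapped the controls, and 6.75% in control/fusion, which did not, against 7.39% in controls. Trbv13-3, Trbv16 and Trbv19 overlapped between all groups.

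Small changes of level were nonetheless called. The median log2 fold change of the tested Trbv genes was -0.04 in fusion/fusion against control, 0.04 in control/fusion against control and -0.04 in fusion/fusion against control/fusion, beside -0.01, 0.00 and -0.00 over all genes. In fusion/fusion against control cells, 2 of 22 tested Trbv genes were lower and 0 higher (edgeR), where 45.7% of all genes were called, 22% lower and 23.8% higher; the members' count was not above this background. Trbv17 held 1.77%, 1.60% and 1.66% of Trbv counts in fusion/fusion, 2.42%, 2.29% and 2.25% in control/fusion, and 2.35% and 2.53% in control libraries. All 3 fusion/fusion libraries lay below the other 5. Its level fell by 0.59 ± 0.13 on the log2 scale against controls (SE, edgeR adjusted p = 0.00508) and by 0.49 ± 0.12 against control/fusion (edgeR adjusted p = 0.0217). Trbv31, the V gene that lies alone beyond the constant genes, held 5.77%, 6.15% and 5.93% in fusion/fusion, 6.38%, 6.62% and 6.2% in control/fusion, and 7.01% and 7.55% in control libraries. The 3 groups did not overlap. Its level fell by 0.35 ± 0.08 in fusion/fusion against controls (edgeR adjusted p = 0.00603), and was -0.21 ± 0.08 in control/fusion against controls, which was not called (edgeR adjusted p = 0.0942). When the library size was set to the summed Trbv counts, Trbv31 against controls gave adjusted p = 0.0696 and Trbv17 against control/fusion 0.0746 (edgeR), and neither was called; under that scaling 36.6% and 12.2% of genes were called in these comparisons. Summed erythroid markers, genes of red cell precursors, stood at 318 to 362 CPM in fusion/fusion, 120 to 573 CPM in control/fusion and 52.1 to 119 CPM in control libraries, and their part in these changes was not tested.

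**Figure D5:**
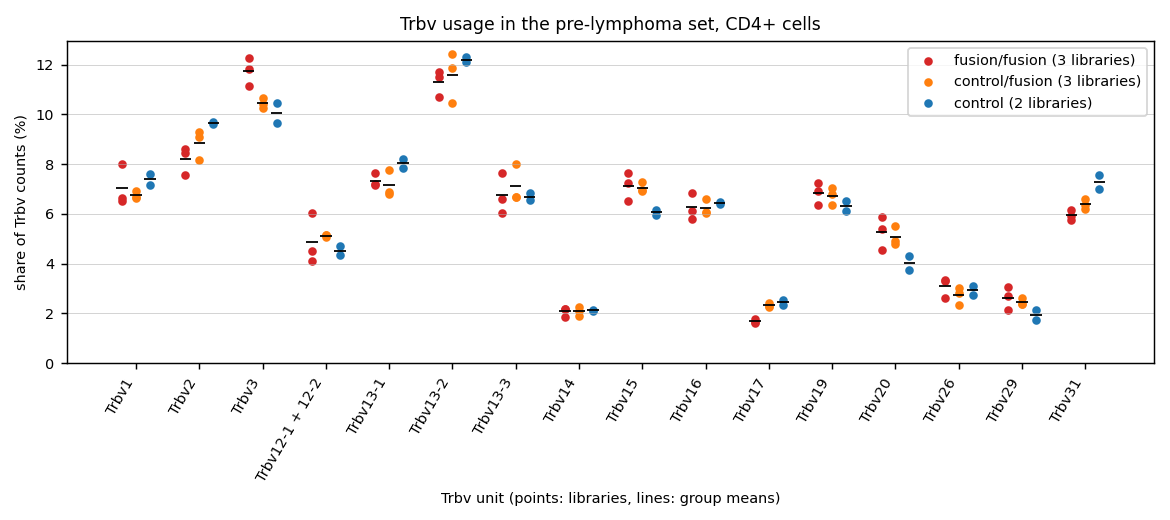
Share of each Trbv unit that reached 1% in the pre-lymphoma set (y axis, percent of Trbv counts), by library (points) and group mean (lines), for fusion/fusion, control/fusion and control CD4+ cells. Trbv13-2 and Trbv3 lead in all 3 groups, and Trbv17 is lowest in the 3 fusion/fusion libraries (1.60% to 1.77%).

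In control/fusion against control cells 0 of 22 Trbv genes were called by edgeR, with 2 below 0.05 before adjustment, where 20.3% of all genes were called. DESeq2 also called 0, where it called 22% of genes. In fusion/fusion against control/fusion cells Trbv17 was the 1 called, where 9.3% of genes were called lower and 18.9% in all. By CPM without overlap between groups, 2 of 22 Trbv genes were higher and 6 lower in fusion/fusion than in controls, where 35.2% and 29.8% of 16635 genes were, and 3 higher and 3 lower in control/fusion, where 28.2% and 23.1% were. Trbv17 and Trbv31 were lower and 0 genes higher without overlap in fusion/fusion than in control/fusion, where 16.6% and 20.4% of genes were. By share of Trbv counts, 4 of 24 units were higher and 7 lower without overlap against controls in fusion/fusion, and likewise 4 and 7 in control/fusion. Shares of Trbv counts have no counterpart over all genes, so these numbers of units have no background beside them. Trbv4, among the lower units in both groups, rested on 0 to 10 counts in a library of this set. The comparisons with controls share the same 2 libraries. Trbv20 was among the higher genes in both of them, at 4.55%, 5.39% and 5.87% of Trbv counts in fusion/fusion, 4.92%, 5.52% and 4.79% in control/fusion, and 3.74% and 4.32% in controls, without passing the test (edgeR adjusted p = 0.053 and 0.107). Trbv3 held 11.8%, 11.2% and 12.3% in fusion/fusion, 10.4%, 10.7% and 10.3% in control/fusion, and 10.5% and 9.66% in controls, and did not pass either (edgeR adjusted p = 0.203 in fusion/fusion against control).

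The constant genes Trbc1 and Trbc2 were not called in any pre-lymphoma comparison, and Trbc1 took 32.9% to 34.5% of their counts in fusion/fusion, 33.6% to 34.3% in control/fusion and 32.1% and 36% in control libraries. Of the 5 receptor complex genes, Cd247, which encodes the zeta chain, fell by 1.04 ± 0.08 in fusion/fusion and by 0.59 ± 0.08 in control/fusion on the log2 scale against controls, and Cd3g, which encodes the gamma chain of CD3, rose by 0.27 ± 0.07 in fusion/fusion (SE, edgeR adjusted p = 8.14e-06, 0.00103 and 0.0102). These are 2 of 5 genes called in fusion/fusion, where 45.7% of all genes were called, and 1 of 5 in control/fusion, where 20.3% were. In fusion/fusion against control/fusion Cd3g rose by 0.23 ± 0.06 and Cd247 fell by 0.45 ± 0.07 (edgeR adjusted p = 0.0295 and 0.00261), where 18.9% of genes were called. Dntt, which adds bases at receptor junctions in immature lymphocytes, fell by 0.88 ± 0.18 in fusion/fusion and by 1.25 ± 0.19 in control/fusion (edgeR adjusted p = 0.003 and 0.00194), and was not called between them; it was the only 1 of the 4 assembly genes with enough counts to be tested.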

How the data were processed

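Poly-A RNA of CD4+ T cells and whole spleen was amplified with SMART-Seq v4 and sequenced, per the labels' protocols. The deposited files hold raw counts per gene; the submitters' processing notes name HISAT2 2.1.0 and HTSeq 0.5.4 and the build mm10 or GRCm38. Strandedness and annotation release are not given in the sources used here. The CD4-CreERT2 tables give Ensembl identifiers, matched to symbols with GENCODE vM21. They also list gene coordinates and lengths, while the other tables list symbols and HTSeq's rows of unassigned reads. Whether the CD4-CreERT2 libraries were counted with the same program is therefore uncertain. Gene counts per library were 12632196 to 37568512. Over all genes, no 2 libraries of a group agreed within sampling noise (lowest chi-square per degree of freedom 6.9). Shares, effective numbers and distances were computed in Python 3.11.15 with scipy 1.17.1. Levels were tested with edgeR 4.0.16 (TMM scaling, filterByExpr with a minimum count of 10, quasi-likelihood F test, Benjamini-Hochberg adjustment) within each comparison, the 3 pre-lymphoma groups sharing a fit; DESeq2 1.42.0 was an alternative. The edgeR step was tested on simulated data. Usage measures were compared by exact two-sided permutation within models, and control CD4+ cells with spleen within mice, whose shared mouse number in the titles gives the pairing. V genes named in full lead some library, rank among the 8 highest in control CD4+ cells, or pass edgeR without overlap in fusion/fusion cells; Trbv4, Trbv5, Trbv14, Trbv15, Trbv24, Trbv26, Trbv29 and Trbv30 were named after their values were seen. The members and lists were chosen with earlier results of these data known.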

Additional observations from a re-analysis of the deposited data

Results flagged for a closer look

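A gap between the most extreme library and the next that exceeds Dixon's 95% critical value for 4 samples was found in 4 of 16 measures checked in the CD4-Cre CD4+ tumors. The measures depend on each other and include shares of units chosen because they lead some library. No chance rate can therefore be set beside this count. Trbv12-1 with Trbv12-2 stood at 67.9% of Trbv counts in VM645-tumor, against 5.10% to 10.8% in the other 3. Trbv3 stood at 51.0% in VM388, against 4.94% to 10.8%. Trbv17 stood at 2.88% in VM98, against 1.01% to 1.18%. All 4 lay below the 3.13% to 4.45% of the CD4-Cre control CD4+ cells, and VM98 was the nearest to them. The summed Trbv level was 540 CPM in VM388, against 339 to 370 CPM in the other 3. Only this group had the 4 or more libraries the check needs.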

How the results depend on the processing

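Of 61 usage values under other settings, 58 kept their direction, and none crossed the adjusted threshold. Leading share in fusion/fusion against control/fusion was 0.276 points, but -0.451 with Trbv12 and with Trbv13 genes summed and -0.33 with counts divided by length. Effective number in control CD4+ cells against spleen was 0.145, but -0.534 with every gene on its own. Leaving out 1 library or mouse at a time gave -0.216 to 0.657 for the first and -0.088 to 0.242 for the second; for the model difference it gave -29.2 to 21.7 points in CD4+ cells and -17.1 to 3.72 in spleen. Without the mouse pairing as replicate block, the CD4+ against spleen value was 0.145 (exact permutation p = 0.794). Counts of Trbv genes called moved by over 1.5 times under summed-Trbv scaling (1 in fusion/fusion against control, 0 against control/fusion) and DESeq2 (2 in CD4-Cre CD4+ cells, 1 in CD4-CreERT2 CD4+ cells, 1 in CD4-CreERT2 spleens). Leaving out libraries gave 2 to 4 and 0 to 1 in those fusion/fusion comparisons (4 without TA024; 0 without TA022, TA024 or TA025), 0 to 2 in CD4-Cre CD4+ cells (2 without VM98), 0 to 20 in CD4-CreERT2 CD4+ cells (20 without VM236, 1 without VM231) and 0 to 2 in CD4-CreERT2 spleens (2 without VM236). Other ranges on leaving out 1 library were -7.97 to -2.48 for the CD4+ and -4.40 to -2.52 for the spleen effective number, and -0.45 to -0.10 (exact permutation p = 0.0167 to 0.324) and -1.31 to -0.39 (p = 0.04 to 0.35 by the same exact test) for log2 summed Trbv CPM in CD4+ cells and spleen. With the libraries numbered VM645 left out, the CD4+ leading-share difference was 19.8 points. With the Trbv13 genes summed, they led every library but those of VM388, VM645-tumor and VM231, and the tumor leading-share difference was 19.1 points in CD4+ cells and 11.6 in spleen. Divided by length, 8 of 31 libraries changed their leading unit, all 8 to Trbv13-2; Trbv3, Trbv20 and Trbv12-1 with Trbv12-2 stayed in the lead in VM388, VM231 and VM645-tumor. The causes were not tested. At 350 Trbv counts, a unit at 0 in VM294 may hold up to 0.857%.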
